A study of Drosophila melanogaster with 16 samples.

Results

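The 5 neprilysin genes Nep1, Nep2, Nep3, Nep4 and Nep5 were followed through the clock network of the adult fly brain. They were taken by name from 17299 genes in a single-cell table and from 8467 genes in a bulk table, and all 5 are listed in both. The single cells were EGFP-positive brain cells sorted from flies in which Clk856-GAL4 and the split driver R11B03-AD;VT002670-DBD both drove UAS-EGFP, with 23921 cells in 10 droplet libraries. The flies lived in a light:dark cycle, and libraries were made at 6 Zeitgeber times (ZT, hours after lights on), with 2 libraries at ZT02, ZT06, ZT14 and ZT22 and 1 at ZT10 and at ZT18. The bulk data were 6 Smart-seq3 libraries of sorted cells at ZT02, 2 from each of R11B03-AD;R77H08-DBD > UAS-EGFP, split-0367 > UAS-EGFP and R11B03-AD;VT055068-DBD > UAS-EGFP. All flies carried the UAS-EGFP reporter, no mutant or treated flies were compared, and the GAL4 drivers decide which cells could be sorted. The age of these flies is not given in the sources used here, and equal numbers of males and females were pooled for the single cells.

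Neprilysins are zinc metallopeptidases of the M13 family. Most sit in the plasma membrane with the catalytic domain outside the cell, where they cut short peptides and so end peptide signals. In the fly, neprilysin-like activity in brain membranes can inactivate the clock peptide PDF, and several members are needed in the brain for memory. Clock neurons signal to each other largely through peptides, each cell type with its own set.

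Clock cells were those with 4 or more UMIs (unique molecular identifiers, each standing for a captured transcript) of Clk, per, tim and cwo summed, which gave 10916 cells. The members were chosen for their level and daily rhythm in 6 marker groups of these cells, 3375 cells in all. The choice set these groups against cells with no UMI of Clk or tim. The br/Cht6 group held 703 cells, the CrzR/ct group 302, the CG15537 group 572, the Pvf3 group 824, the Pdf group 317 and the AstA group 657. A further 7308 clock cells lay outside these groups and were not used in the choice, and 1433 of them fell into 6 other marker groups (CCHa1, CNMa, NPF, CapaR, RunxA and CG34351/mtt). The comparison cells were 9841 sorted cells with no UMI of Clk or tim and a clock sum under 4, called cells without clock genes. Another 3164 cells fell between these gates, and 233 cells met more than 1 marker rule and were left out. The marker groups are gates on single genes and not the clusters of the study.

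Library totals ran from 3518519 to 32385361 UMIs, and 55 cell barcodes occurred in more than 1 library, at most 13 in any pair. vri, a clock gene that was not in the gate, averaged 5.3 to 10.2 UMIs per 10000 in the 12 marker groups and 0.298 in cells without clock genes. Pdp1 and vri cycled in the outside clock cells, with fitted peaks at ZT16.4 and ZT13.8 (adjusted p = 0.00354 for both, edgeR), and neither passed in cells without clock genes. The neuronal gene elav averaged 4.25 or more per 10000 in every marker group. Cell depth differed between groups, with a median of 15508 UMIs per cell in the Pdf group, 3805.5 in the Pvf3 group and 3660 in cells without clock genes. per and tim themselves cycle, so the gate takes different shares of cells at different times, and the marker genes CrzR, CG15537, AstA, CCHa1 and CNMa also passed the rhythm test in their own groups. Of all genes, 6.49% passed that test in CrzR/ct, 3.62% in CG15537, 8.45% in AstA, 11.1% in Pdf, 1.51% in br/Cht6 and 0.565% in Pvf3.

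The members differed widely in abundance. Of 32199 neprilysin UMIs in the table, Nep3 gave 25124 (78.0%), Nep1 3733 (11.6%), Nep2 2368 (7.35%), Nep4 962 (2.99%) and Nep5 12. Nep3 was seen in 42.3% of cells, Nep1 in 6.49%, Nep2 in 3.57% and Nep4 in 1.94%. Nep5 was seen in 12 cells with 1 UMI each. The rare members were concentrated in few cells. The 84 cells with 5 or more Nep2 UMIs held 49.5% of all Nep2 UMIs, and 1 cell held 121.

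Nep1 lies on chromosome X at 6091205 to 6103971 on the plus strand (FBgn0029843), Nep3 on X at 19961297 to 19969323 on the plus strand (FBgn0031081), Nep2 on 3R at 4719458 to 4731878 on the minus strand (FBgn0027570), Nep4 on 3R at 20652567 to 20659904 on the minus strand (FBgn0038818) and Nep5 on 3R at 27057908 to 27064199 on the minus strand (FBgn0039478), in BDGP6.54 (dm6 coordinates). Each count sums over the exons of all annotated transcripts of a gene, 3 or 4 per member. An exon of Nep1 overlaps an exon of Mipp2 on the opposite strand, and an exon of Nep5 overlaps RYa-R on the opposite strand. Whether the counting used the strand is not given in the sources used here, so reads in those overlaps cannot be told apart.

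**Figure D1:**
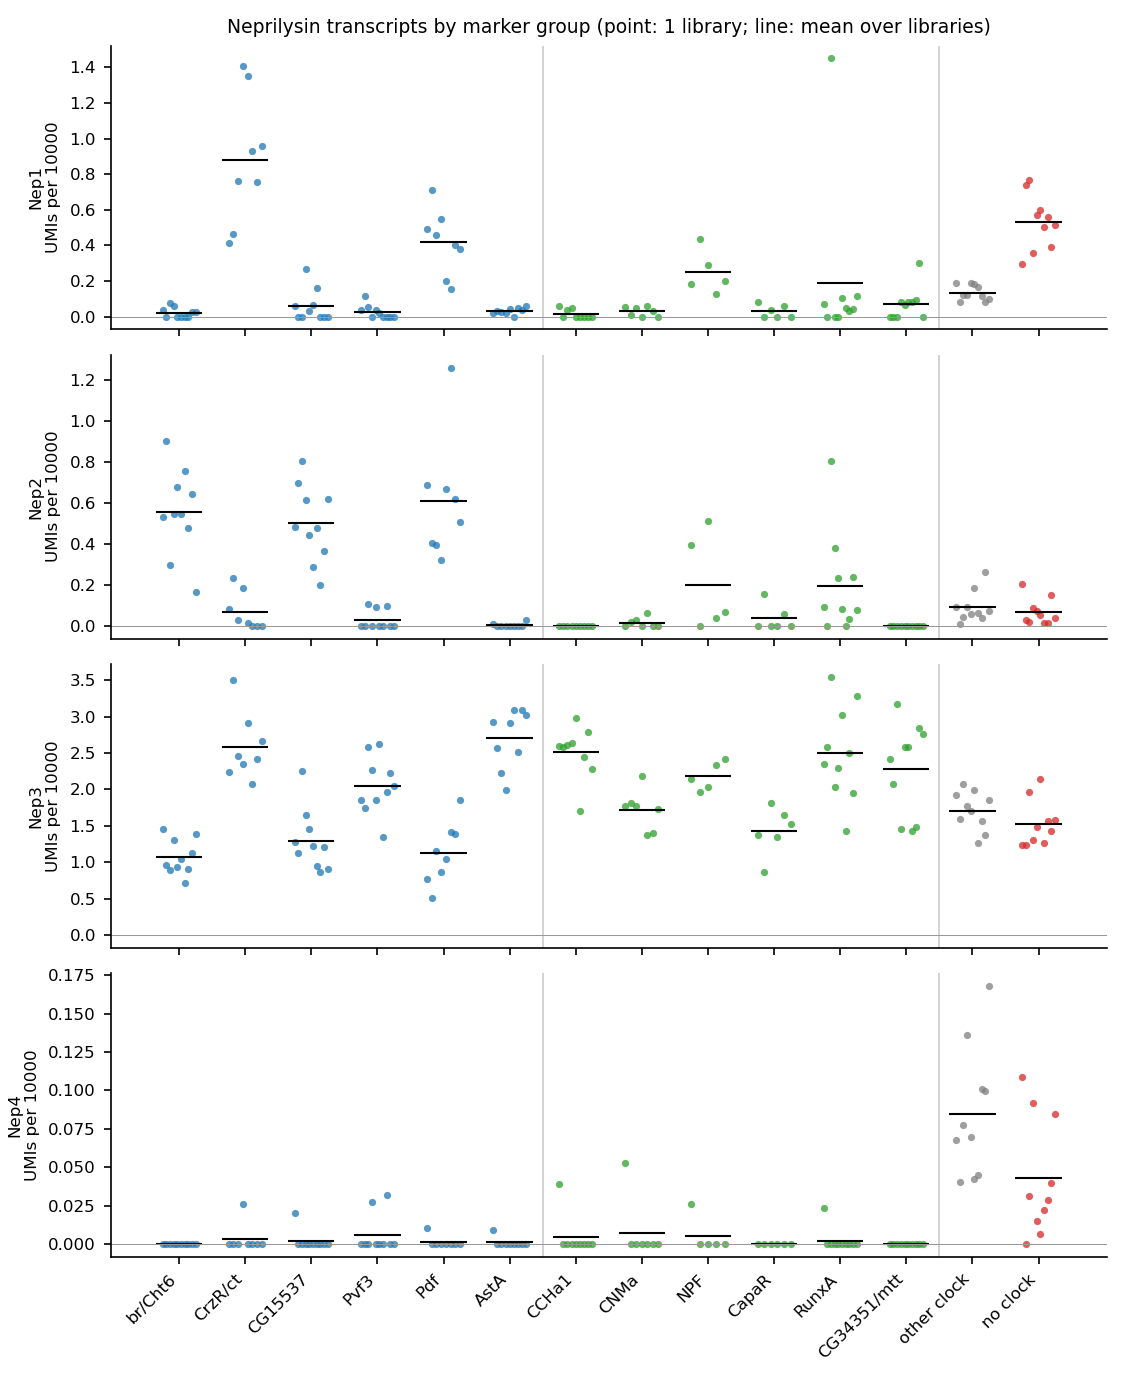
UMIs per 10000 of Nep1 to Nep4 (vertical axes, 1 panel per gene, linear scales that differ between genes) in 12 marker groups of clock cells, the other clock cells and cells without clock genes. Points are libraries with 5 or more cells of the group, lines are means over libraries, blue marks the 6 groups used to choose the members, green the 6 outside groups. Nep1 stood at 0.88 in CrzR/ct and 0.417 in Pdf, Nep2 at 0.5 to 0.61 in br/Cht6, CG15537 and Pdf, Nep3 was present in every group, and Nep4 was near 0 in all 12.

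In the single-cell data a level is given as UMIs per 10000 UMIs, summed over the cells of a group in each library. Since the members were chosen on these groups, their levels are a description with no test. Nep1 was highest in the CrzR/ct group, at 0.88 ± 0.365 (SD, n = 8 libraries), with a lowest library at 0.415, a median of 0.845 and a highest at 1.41. CrzR is the receptor for the peptide corazonin, and ct encodes the homeodomain factor Cut. The Pdf group, cells of the ventral lateral neurons that make the clock peptide PDF, came next among the clock cells with 0.417 ± 0.181 (n = 8). The ranges of these groups overlapped each other and that of the cells without clock genes, which stood at 0.529 ± 0.153 (n = 10). In the br/Cht6, CG15537, Pvf3 and AstA groups Nep1 averaged 0.022 to 0.0585. No library of those 4 groups reached the lowest CrzR/ct library. The share of all genes whose level ranges lie apart between groups was not counted, here or for Nep2 and Nep3 below.

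Counted by cells, 50.3% of CrzR/ct cells and 39.7% of Pdf cells had a Nep1 UMI, against 0.85% of Pvf3 cells (95% exact interval up to 1.74%). These shares depend on depth. With every cell thinned to 3000 UMIs, leaving out the 11 CrzR/ct, 8 Pdf and 216 Pvf3 cells that were shallower, they were 21.1%, 10.7% and 0.5%. The order was kept. Among groups with little Nep1 whose depth was near that of CrzR/ct (median 11908 UMIs per cell), 3.65% of AstA cells (median 11880) and 2.39% of CCHa1 cells (median 11588) had a Nep1 UMI.

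Among the cells without clock genes, Nep1 was unevenly spread. Those with Vmat, the vesicular transporter of monoamines, at 20 or more per 10000 (708 cells, a class chosen after the values were seen) had 1.62 ± 0.45 (SD, n = 10 libraries), and those with less Vmat had 0.329 ± 0.181. The first class was higher in 9 of 10 libraries, and at ZT02 replicate 1, where it held 13 cells, the values were 0.742 and 0.746. The comparison level of Nep1 is thus an average over a mixed population. Cells with VGlut as their transmitter gene held 0.814 ± 0.354, cells with Gad1 0.706 ± 0.872 and cells with VAChT 0.394 ± 0.13. These classes were set without regard to Vmat and can share cells with the Vmat classes.

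Nep2 had another distribution. Nep2 of the fly can cleave tachykinin peptides. It was found in the Pdf group at 0.608 ± 0.297 (SD, n = 8 libraries), in br/Cht6 at 0.554 ± 0.213 (n = 10) and in CG15537 at 0.499 ± 0.188 (n = 10). These 3 levels did not differ beyond their spread. CrzR/ct, where Nep1 was highest, held 0.0676 ± 0.0911 of Nep2, close to the 0.0675 ± 0.065 of cells without clock genes, and Pvf3 held 0.0296. AstA cells, the lateral posterior neurons marked by allatostatin A, had 3 Nep2 UMIs in 657 cells. The lowest br/Cht6 library (0.165) and the lowest CG15537 library (0.2) lay above the highest Pvf3 library (0.108).

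The CG15537 level of Nep2 was the only one of the levels in the 6 groups to move beyond its spread when a gate was changed. It was 0.827 with all marker levels doubled. A Nep2 UMI was seen in 16.1% of br/Cht6 cells, 15.6% of CG15537 cells and 46.1% of Pdf cells, and in 12.3%, 10.5% and 14.4% after thinning to 3000 UMIs. After thinning the 3 shares were close. Cells with many Nep2 UMIs lay mostly outside these groups. Of the 84 cells with 5 or more Nep2 UMIs, 24 were cells without clock genes, 21 lay between the gates and 22 were clock cells in no marker group.

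Nep1 and Nep2 were both present in the Pdf group. Of its 317 cells, 64 had a UMI of Nep1 only, 84 of Nep2 only, 62 of both and 107 of neither. Cells with both made up 19.6%, and the product of the single shares is 18.3%. The pair was thus seen together about as often as the single shares give.

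Nep3 was the broad member. It was present in every group and every library, with group means from 1.07 to 2.71 per 10000. The AstA group had 2.71 ± 0.403 (SD, n = 9 libraries) and CrzR/ct 2.58 ± 0.452 (n = 8), followed by CCHa1, RunxA, CG34351/mtt and NPF at 2.52, 2.5, 2.28 and 2.18. Pvf3 held 2.05 ± 0.39 (n = 10). At the low end were the 3 groups with most Nep2, CG15537 at 1.29 ± 0.418, Pdf at 1.13 ± 0.427 and br/Cht6 at 1.07 ± 0.242. Cells without clock genes lay between, at 1.52 ± 0.309. No neighbours in this order were separated by their ranges, but the ends were, since the lowest AstA library (1.99) exceeded the highest br/Cht6 (1.45) and Pdf (1.86) libraries.

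The genes whose pattern was most like that of Nep3 over the 12 marker groups and the cells without clock genes (13 points) were Sytalpha (r = 0.828), CG9231 (r = 0.722) and CG13248 (r = 0.708), of 2495 genes searched. Sytalpha encodes a synaptotagmin, a vesicle protein. The points share libraries, and the correlations are a description. No other member reached 1 per 10000 in a group mean.

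Nep4 was near 0 in every marker group. The 12 groups together gave means of 0 to 0.00754, and br/Cht6, CapaR and CG34351/mtt had no UMI. In 703 br/Cht6 cells a count of 0 allows up to 0.00805 per 10000. Nep4 appeared instead in other clock cells at 0.0847 ± 0.0422 (SD, n = 10 libraries) and in cells without clock genes at 0.0429 ± 0.0383. Nep5 had no group above 2 UMIs among the 12, and its levels are not described further.

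Cells with glial marker genes carried most Nep4. The markers repo, moody, alrm and wrapper together reached 2 or more UMIs in 798 cells (3.34%), and these held 61.4% of all Nep4 UMIs. Nep4 was at 0.995 ± 0.391 per 10000 in them (SD, n = 10 libraries; lowest 0.352) and at 0.0204 ± 0.0171 in all other cells (highest 0.0506). The ranges did not overlap, and the share of all genes separated in this split was not counted. In the same cells elav was at 2.22 and nSyb, a synaptic vesicle gene of neurons, at 2.53, against 7.79 and 23.1 in the others. SPARC, a matrix gene, was at 23.3 against 1.19. With a minimum of 1 glial UMI, 1973 cells held 80.6% of Nep4. Of the other members Nep1 and Nep3 were lower in the cells with glial markers (0.0251 and 0.578, against 0.26 and 1.65). Nep2 ranged from 0 to 2.78 over libraries there, and the 286 cells with glial markers at ZT02 replicate 2 held 409 of the 832 Nep2 UMIs of that library.

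**Figure D2:**
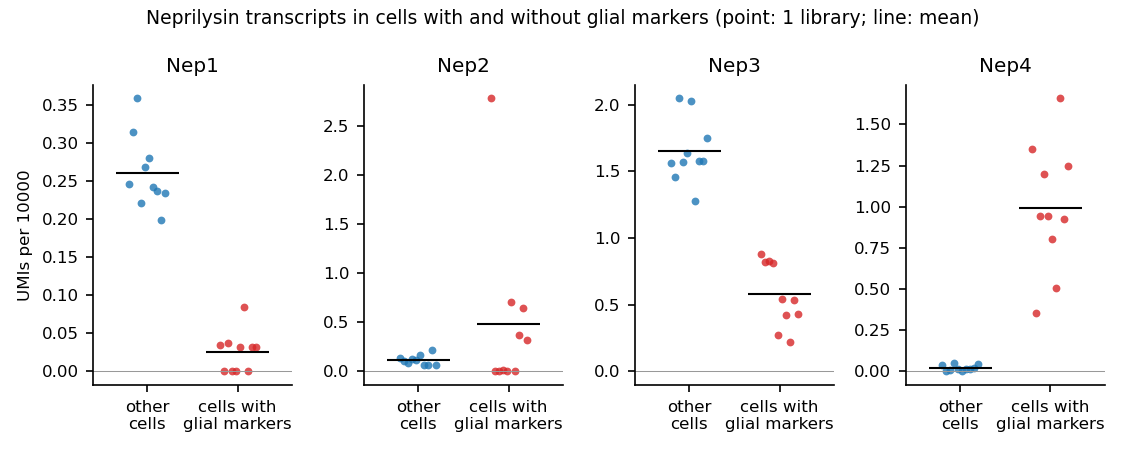
UMIs per 10000 (vertical axes, linear scales that differ between panels) of Nep1 to Nep4 in cells with 2 or more UMIs of repo, moody, alrm and wrapper (red) and in all other cells (blue). Points are the 10 libraries and lines their means. Nep4 lay between 0.352 and 1.66 in the cells with glial markers and at 0.0506 or less in the others.

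The daily course was described by a 24 h cosine and sine fitted to the summed counts. Its size is given as the swing, the peak of the fitted curve over its trough on the log2 scale. In the CrzR/ct group Nep1 was lowest in the morning, at 0.415 at ZT02 and 0.461 and 0.761 at ZT06. It was highest at ZT10 with 1.41 and ZT14 with 1.35, then 0.929 at ZT18 and 0.754 and 0.956 at ZT22. The fitted peak was at ZT14.4 with a swing of 1.34 ± 0.32 (SE, n = 8 libraries), a 2.53-fold range, where the median swing of all genes in that group was 0.611. Leaving out single libraries gave swings of 1.08 to 1.55. With the collection date as a block the swing was 1.74.

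In the Pdf group Nep1 ran the other way. The 4 libraries of the light phase held 0.494 at ZT02, 0.71 and 0.46 at ZT06 and 0.546 at ZT10, and the 4 of the dark phase held 0.199 at ZT14, 0.153 at ZT18 and 0.399 and 0.378 at ZT22. The ranges of day and night did not overlap. The share of all genes with day and night ranges apart was not counted, here or in the other groups, and 11.1% of genes passed the rhythm test in the Pdf group. The fitted peak was at ZT4.46 with a swing of 1.71 ± 0.45 (SE, n = 8 libraries), a 3.27-fold range, beside a median swing of 0.802 over all genes of the group. The counts were small, with 4 UMIs at ZT18 and 7 at ZT06 replicate 1. Leaving out ZT14 replicate 2 gave a swing of 1.25. By cells, 50.3% had a Nep1 UMI from ZT02 to ZT10 and 28.8% from ZT14 to ZT22, at median depths of 15508 and 15510 UMIs.

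Pairs of libraries were collected on the same date, so times could also be compared within a date. This was done for members only, so no share of all genes stands beside the counts of dates. Nep1 in the Pdf group was lower in the later library on all 4 dates, by ratios of 0.404, 0.216, 0.73 and 0.822. In CrzR/ct it was higher in the later library on 3 of 4 dates, and lower from ZT10 to ZT22 (ratio 0.535). In cells without clock genes the Nep1 swing was 0.258 ± 0.38 and the Nep3 swing 0.244 ± 0.249, beside a median of 0.318 over all genes. Larger fitted swings were found there for Nep2, at 1.9 ± 0.945 with a peak at ZT2.19, and Nep4, at 2.6 ± 0.997 with a peak at ZT1.62. Of all 9117 genes tested in these cells, 0 passed the rhythm test in edgeR. Without single libraries the Nep2 swing was 1.16 to 2.59, and ZT02 replicate 2 gave 346 of its 555 UMIs. The Nep4 swing was 2.09 to 3.16, and the same library gave 182 of its 335 UMIs. Cells with glial markers, which held most Nep4, were 4.97% of all cells at ZT02 replicate 2 and 1.69% at ZT14 replicate 2. Their part in the Nep4 swing was not tested. Nep2 in CrzR/ct, low as it was, fell mostly in the light phase, with 18 of its 19 UMIs and ranges of 0.0293 to 0.231 by day and 0 to 0.0148 by night.

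Nep2 and Nep3 in the Pdf group both averaged higher at night, Nep2 at 0.763 against 0.453 by day and Nep3 at 1.43 against 0.825, with ranges that overlapped. The Nep2 libraries held 0.687 (ZT02), 0.406 and 0.394 (ZT06), 0.323 (ZT10), 0.667 (ZT14), 1.26 (ZT18) and 0.62 and 0.504 (ZT22). Its swing was 1.24 ± 0.44 with a peak at ZT19.8, and without single libraries it was 0.876 to 1.59. Nep3 ran from 0.507 at ZT06 replicate 1 to 1.86 at ZT22 replicate 2, with a swing of 0.916 ± 0.35 and a peak at ZT20.7. Nep3 was higher in the later library on all 4 dates and Nep2 on 3 of 4. In these cells Nep1 thus stood highest by day and the other pair at night.

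In the CG15537 group Nep2 and Nep3 ran opposite to the Pdf group. Nep2 averaged 0.608 by day (0.441 to 0.805) and 0.39 by night (0.2 to 0.62), with a swing of 1.15 ± 0.43 and a peak at ZT3.79. Nep3 averaged 1.55 by day and 1.03 by night, with a swing of 0.753 ± 0.27 and a peak at ZT6.5, and was lower in the later library on all 5 dates. Nep2 was lower in the later library on 4 of 5 dates. The median swing of all genes in this group was 0.6.

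Of the other swings in these groups, Nep1 in AstA had 1.22 ± 0.85 from 25 UMIs. Nep2 in br/Cht6 had 0.454 ± 0.4, and 0.0648 to 0.775 without single libraries. Nep3 had 0.608 ± 0.25 in br/Cht6, 0.385 ± 0.18 in AstA, 0.141 ± 0.24 in CrzR/ct and 0.118 ± 0.24 in Pvf3. The Nep3 swing in CrzR/ct was 0.455 without cells over 15000 UMIs and 0.433 without the top 5% of cells by UMIs, and that in Pvf3 was 0.431 without ZT14 replicate 2.

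**Figure D3:**
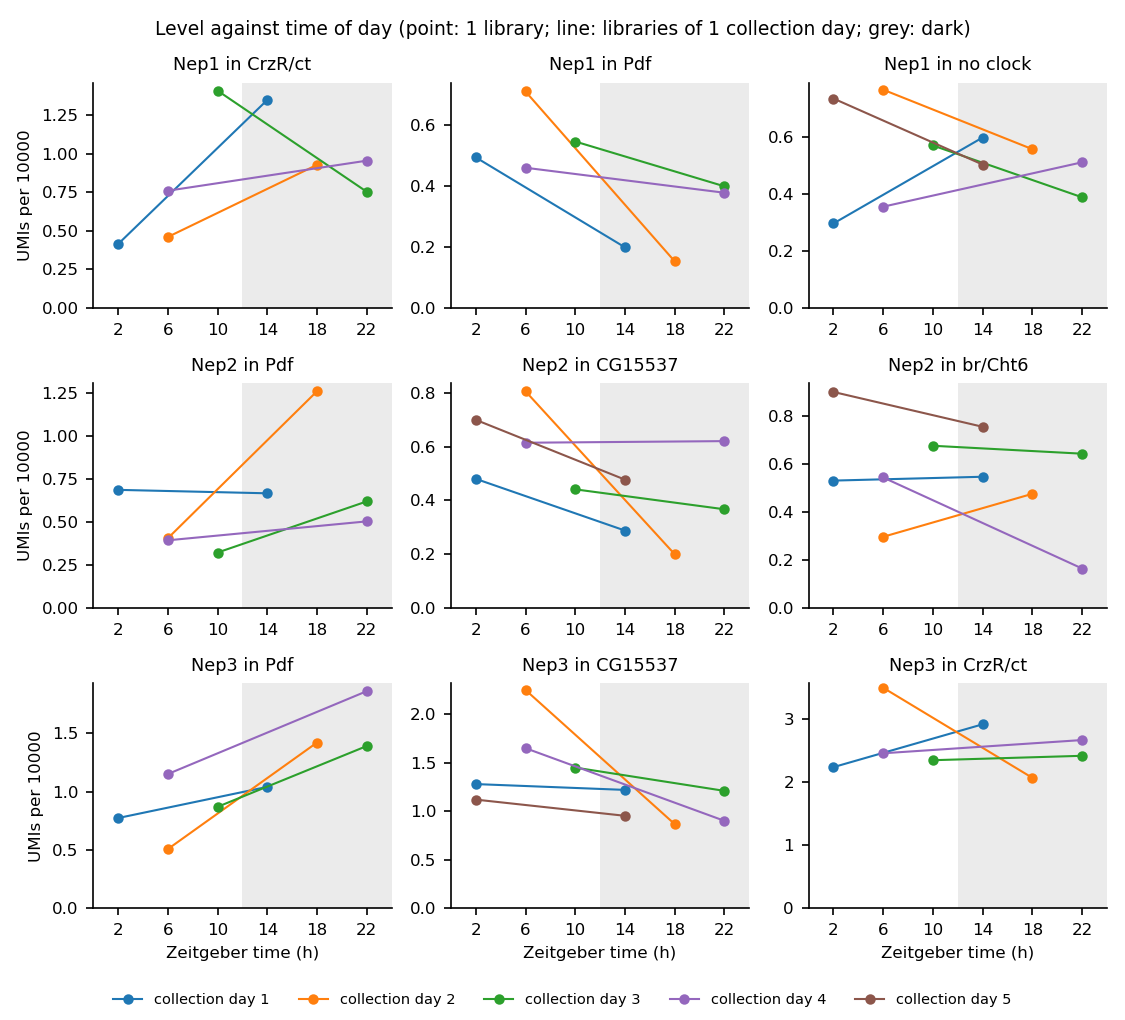
UMIs per 10000 (vertical axes, linear, starting at 0) against Zeitgeber time in hours for Nep1, Nep2 and Nep3 in 8 pairs of gene and marker group, and Nep1 in cells without clock genes. Points are libraries, colours and lines mark the collection date, and the grey area is the dark phase. Nep1 in the Pdf group fell from 0.46 to 0.71 by day to 0.153 to 0.399 by night, while Nep1 in CrzR/ct was highest at ZT10 and ZT14, at 1.41 and 1.35.

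The clock cells outside the 6 groups were not used to choose the members, so the tests fall on them. The cells without clock genes were part of that choice, so the level tests are independent of it on the clock-cell side only. They were compared with the cells without clock genes of the same libraries by edgeR's quasi-likelihood test with the library as a block, and p values were adjusted by Benjamini-Hochberg over all genes tested. Nep1 was lower in the outside clock cells, at 0.121 ± 0.0372 against 0.529 ± 0.153 (SD, n = 10 libraries). The log2 ratio was -2.08 ± 0.19 (SE), 4.24-fold lower, with adjusted p = 5.2e-06 in the edgeR test, and Nep1 was higher in 0 of 10 libraries. Nep3 was slightly higher, at 1.81 ± 0.245 against 1.52 ± 0.309, with a log2 ratio of 0.24 ± 0.07 (edgeR adjusted p = 0.0225, higher in 9 of 10 libraries). The Nep3 call was lost without ZT06 replicate 2 (adjusted p = 0.0561) and without the library block (adjusted p = 0.126). Of all 9847 genes tested, 19.3% were called higher and 20.4% lower, so a call in this contrast is common.

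Nep2 and Nep4 did not pass. Nep2 had a log2 ratio of 0.39 ± 0.3 (edgeR adjusted p = 0.344), and Nep4 0.77 ± 0.29 (edgeR adjusted p = 0.0511, higher in 9 of 10 libraries). Nep4 passed under 4 of the other settings, among them without ZT02 replicate 2 (adjusted p = 0.00533), and was 0.23 (edgeR adjusted p = 0.858) after the cells with glial markers were left out. Cells with glial markers made up 4.12% of the outside clock cells and 3.04% of the cells without clock genes. Summed over libraries Nep4 was nearly equal, at 0.0681 and 0.0666 per 10000. Nep2 summed in this way was lower in the outside clock cells, at 0.0932 against 0.11 (1.18-fold, 95% counting interval 1.05 to 1.33). The direction for Nep2 thus depends on how the libraries are weighted.

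Each outside marker group was tested in the same way. Nep1 was lower in all 6, where 30.1% (CCHa1), 27.6% (CNMa), 20% (NPF), 21.5% (CapaR), 26.9% (RunxA) and 22.5% (CG34351/mtt) of all genes were called lower. All 6 groups were set against the same comparison cells. In the CCHa1 group, the anterior dorsal neurons, it was at 0.0159 (6 UMIs in 251 cells) and 21.1-fold lower (edgeR adjusted p = 3.4e-08). In CNMa, a peptide of posterior dorsal neurons, it was 16.3-fold lower (edgeR adjusted p = 4.3e-06). In CapaR, named for the receptor of the Capa peptides, 3 UMIs gave a summed ratio of 15.1-fold lower (95% counting interval 5.15 to 73.2, edgeR adjusted p = 8.2e-08). The smallest difference was in NPF, 2.39-fold lower with edgeR adjusted p = 5.2e-04, and it was lost with the marker levels multiplied by 0.5 (adjusted p = 0.134) and without cells over 15000 UMIs (adjusted p = 0.0654). The RunxA value rested in part on ZT06 replicate 1, without which the log2 ratio was -3.25 in place of -2.59 (adjusted p = 8.0e-08 and 2.0e-05).

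Nep3 was higher in 4 of the 6 outside groups, where 11.7% (CCHa1), 12.2% (CNMa), 7.94% (NPF), 8.11% (CapaR), 9.85% (RunxA) and 7.32% (CG34351/mtt) of genes were called higher. It stood at 2.52 ± 0.359 (SD, n = 9 libraries) in CCHa1, a log2 ratio of 0.8 ± 0.12 (edgeR adjusted p = 1.8e-05, higher in 9 of 9 libraries). RunxA had a log2 ratio of 0.64 ± 0.1 (edgeR adjusted p = 2.9e-05, higher in 10 of 10 libraries). The calls in NPF (0.61, adjusted p = 0.00953 in edgeR) and CG34351/mtt (0.41, adjusted p = 0.02 in edgeR) were each lost when single libraries were left out, to adjusted p values of up to 0.103 and 0.104. For NPF these were ZT02 replicate 2 and ZT06 replicate 2, and for CG34351/mtt ZT06 replicate 1, ZT10, ZT14 replicate 2 and both ZT22 libraries. The CG34351/mtt call was also lost with a clock sum of 8 or more, with marker levels doubled and without cells with glial markers. CNMa and CapaR did not pass, with log2 ratios of 0.3 and -0.23.

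Nep2 was not detected in 2 of the outside groups. There was no Nep2 UMI in 251 CCHa1 cells or 270 CG34351/mtt cells, and Nep2 was called lower in both (adjusted p = 4.6e-04 and 0.00393, edgeR). The size of the difference rests in part on ZT02 replicate 2, which gave 346 of the 555 Nep2 UMIs of the cells without clock genes. Taking 3 counts over the group as the floor, the summed counts give bounds of 10.6-fold and 5.42-fold with that library and 4.95-fold and 2.75-fold without it (adjusted p = 0.00162 and 0.00967 without it, edgeR). In CG34351/mtt the call was lost in DESeq2 (adjusted p = 0.109) and with the marker levels multiplied by 0.5 (0.639). Other Nep2 differences did not pass. Those of NPF (log2 0.95) and RunxA (log2 1.01) passed as higher under some settings, and that of CNMa (log2 -1.82, edgeR adjusted p = 0.056) passed as lower with the marker levels multiplied by 0.5 (0.0391) and without ZT18 replicate 1 (0.0146). Nep4 was lower in CCHa1, CNMa, NPF, RunxA and CG34351/mtt, with 0 to 2 UMIs in each. The summed ratios for the groups with 1 or 2 UMIs were 9.69 to 19.7-fold lower, with lower 95% counting bounds of 2.1 to 3.51. All of those UMIs came from ZT02 replicate 2, which also gave 182 of the 335 Nep4 UMIs of the cells without clock genes. Without it the 5 groups had no Nep4 UMI, the floor of 3 counts gave bounds of 1.92-fold to 3.86-fold lower, and the edgeR adjusted p values were 0.00761 to 0.0337. Cells with glial markers were 0% to 1.37% of these groups and 3.04% of the cells without clock genes, and without them the Nep4 calls in CCHa1 (adjusted p = 0.0892), CNMa (0.155), NPF (0.203) and CG34351/mtt (0.0604) were lost. DESeq2 called none of the 5 (adjusted p = 0.0673 to 0.616), and the edgeR calls were lost in CNMa without ZT22 replicate 2 (adjusted p = 0.0692) and in NPF without ZT06 replicate 2 (0.25).

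**Figure D4:**
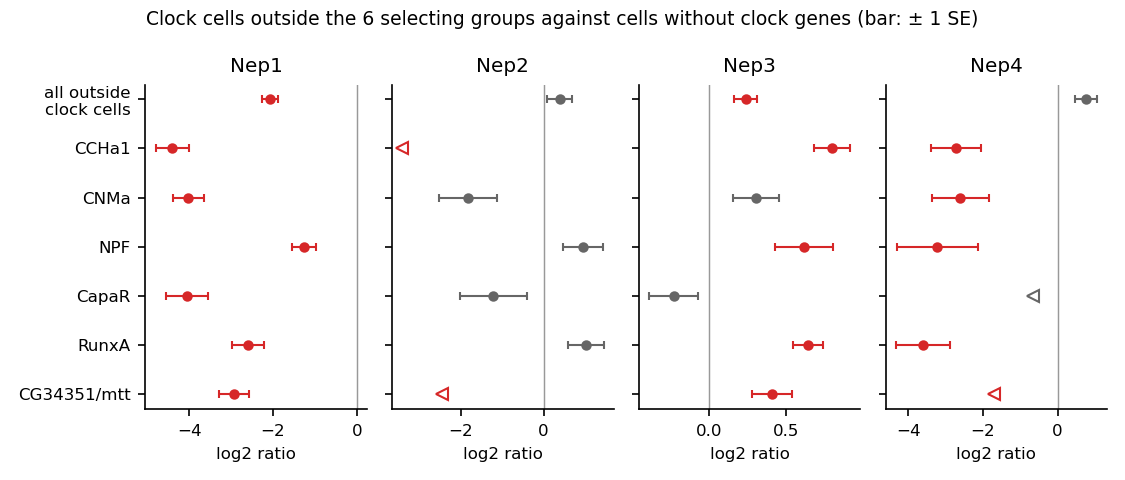
Log2 ratio (horizontal axes) of Nep1 to Nep4 in all outside clock cells and in 6 outside marker groups over cells without clock genes. Circles are edgeR estimates with bars of 1 SE, open triangles are bounds from summed counts, ZT02 replicate 2 included, for groups with 0 UMIs taken at 3 counts, and red marks an adjusted p under 0.05. Nep1 was lower in all 6 groups and Nep3 higher in CCHa1, NPF, RunxA and CG34351/mtt.

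No member had a called rhythm in the outside clock cells. Of 4 members tested, 0 passed in edgeR, 0 had an unadjusted p under 0.05, and 0 passed in DESeq2, where 0.668% of 9426 genes passed in edgeR. With the collection date as a block 113 genes passed in place of 63, again without a member. Nep1 had the lowest p, with a swing of 0.83 ± 0.32 and a fitted peak at ZT9.51 (edgeR adjusted p = 0.586). Nep3, with 11151 UMIs, had a swing of 0.24 ± 0.19. In the outside marker groups 7 tests of 3 members gave 0 calls in edgeR and in DESeq2, with 0 unadjusted p under 0.05 in edgeR and 1 in DESeq2. Of all genes 6.85% passed in CCHa1, 8.14% in CNMa, 3.49% in CapaR, 1.64% in RunxA and 1.04% in CG34351/mtt. NPF could not be fitted, since its libraries with 5 or more cells were from ZT02 to ZT10 only.

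Other peptide-cutting enzymes were read in the same cells. The single-cell table lists 16 further neprilysin-like genes (Nepl), which gave 10107 UMIs together, and 8 of them had under 100. Nepl16 had 6860 and was the main one. In the outside clock cells, 11 Nepl genes were tested, with 1 higher and 1 lower (median log2 ratio 0.557, beside 0.0111 over all genes). Nepl16 had a log2 ratio of -0.4 ± 0.07 (edgeR adjusted p = 4.0e-04), and Nepl4, with 46 UMIs, 1.65 ± 0.5 (edgeR adjusted p = 0.0243). In the outside marker groups Nepl16 was lower in CCHa1 and CNMa, Nepl15 in CCHa1, CNMa, NPF, RunxA and CG34351/mtt, Nepl21 in CCHa1, CNMa and RunxA, and Nepl5 in CNMa and NPF, while Nepl3 was higher in NPF (9 UMIs).

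Of 10 other enzymes, 3 were higher and 2 lower in the outside clock cells (median log2 ratio 0.0454). DppIII, a dipeptidyl peptidase, was higher (log2 0.37 ± 0.07, edgeR adjusted p = 9.2e-04, 10 of 10 libraries), as were Ance-5 (1.87 ± 0.51, adjusted p = 0.0107 in edgeR) and Ance-3 (2.0 ± 0.71, adjusted p = 0.0427 in edgeR), relatives of angiotensin-converting enzyme. ome, another dipeptidyl peptidase, was lower (-1.26 ± 0.18, edgeR adjusted p = 1.3e-04, 0 of 10 libraries), and so was Ide, the insulin-degrading enzyme (-0.26 ± 0.06, edgeR adjusted p = 0.0064). ome was lower in all 6 outside marker groups, with 2 UMIs in CCHa1 and 0 in CapaR. Ance, an angiotensin-converting enzyme homologue, had 0 UMIs in each of the 6 groups and was called lower in all of them. Ance-5 was lower in CCHa1, CNMa, RunxA and CG34351/mtt, and Acer in CCHa1 and CNMa. DppIII was higher in CCHa1, CNMa and NPF, and TppII in CNMa.

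None of the Nepl genes or other enzymes had a called rhythm in edgeR or in DESeq2 in any group. In the outside clock cells 9 of each list were tested, and 1 of each had an unadjusted p under 0.05 in both tools. In the 6 marker groups that chose the members, 29 tests of other enzymes gave 4 unadjusted p under 0.05 in edgeR and 0 in DESeq2, and 6 tests of Nepl genes gave 0.

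The bulk libraries covered sorted cells of 3 drivers at ZT02. Values are normalised read counts, and fewer cells of a type and less RNA per cell cannot be told apart in them. The drivers were part of the choice of members, so these values have no test. Recovered reads per library were 164631 to 505579, so low genes rest on few reads. A gene is called separated here when both libraries of a driver lay above, or both below, the 4 others. Of 8334 genes, 7.7% were higher and 8.81% lower in R77H08 in this way, 8.62% and 7.1% in split-0367, and 16.8% and 10.1% in VT055068.

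Nep1 stood at 58.4 and 18 in R77H08, 33.4 and 43.2 in split-0367 and 13.4 and 16.8 in VT055068, which was below all others. The nearest values, 16.8 in VT055068 and 18 in R77H08, rest on 14 and 16 reads. The R77H08 pair differed by more than the drivers did. Nep2 was at 18.8 and 29.5 in split-0367, above the 0 and 5.64 of R77H08 and the 2.23 and 4.81 of VT055068. The Nep2 values outside split-0367 rest on 0 to 5 reads each. Read by the markers CG15537 and CrzR, this Nep2 order differed from that in the single cells. CG15537 was at 795 and 4280 in R77H08 and 321 or less elsewhere, and its single-cell group held Nep2 at 0.499. CrzR was highest in split-0367 (91.4 and 139), and the CrzR/ct group held Nep2 at 0.0676. Cht6 went the other way, at 139 and 149 in split-0367 and 72.1 and 125 in R77H08, with Nep2 at 0.554 in br/Cht6. The partner markers overlapped between R77H08 and split-0367, ct at 56.5 and 29.3 against 63.6 and 50.1, and br at 19.5 and 10.1 against 17.1 and 14.7. These single-cell levels are means over all times, and the bulk is from ZT02 only. At ZT02 the single-cell Nep2 level was 0.48 and 0.699 in CG15537, 0.083 in CrzR/ct and 0.531 and 0.9 in br/Cht6. The cause was not tested.

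Nep3 was at 95.4 and 75.7 in split-0367, 66.2 and 66.5 in R77H08 and 55 and 50.5 in VT055068, with split-0367 above and VT055068 below the other libraries. Nep4 was at 40.2 and 30.1 in VT055068, from 54 and 25 reads, and at 0 to 1.97 in the other 4 libraries, from 2 reads or fewer. Nep5 had 0 to 4 reads in every library. VT055068 was thus the driver with Nep4, and its Nep1 was lowest by a small margin.

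Of 4 listed glial markers, repo and moody were high in the same driver as Nep4, and alrm and Eaat1 were not. repo was at 52.1 and 64.9 in VT055068 and at 0.983 or less in the other 4, and moody at 16.4 and 19.2 against 3.38 or less. alrm was at 0 in VT055068 and up to 9.02 elsewhere, and Eaat1 was at 35 and 13.2 in VT055068 but 401 and 207 in R77H08. Summed over the 4 listed markers, the libraries held 103 and 97.4 in VT055068, 401 and 220 in R77H08 and 4.89 and 6.88 in split-0367. The sum was highest in R77H08, where Nep4 and repo were at 0 and Eaat1 was at 401 and 207. Eaat1 was not among the markers that chose the single cells with glial markers above. SPARC, high in those cells, was at 997 and 441 in VT055068 and at 18 or less elsewhere. Tret1-1 was at 560 and 346 in VT055068 and at 3.38 or less elsewhere. SPARC and Tret1-1 were not in the set of glial markers used here. elav was at 89.2 to 164 in all 6. The part of glial cells in the Nep4 value was not tested. Pvf3, the marker of one single-cell group, was at 98.9 and 114 in VT055068 and at 17.7 or less elsewhere, while the Pvf3 cells of the single-cell data held 2 Nep4 UMIs in 824 cells.

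**Figure D5:**
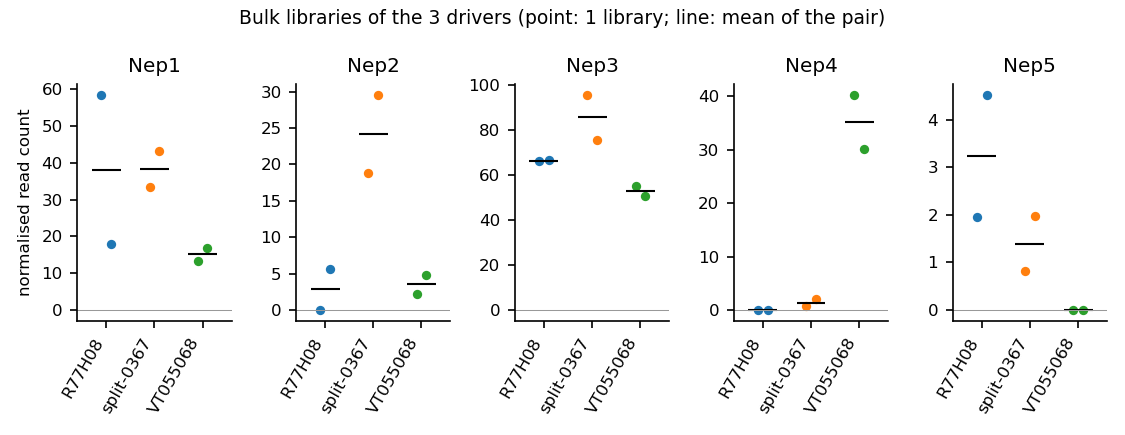
Normalised read counts (vertical axes, linear scales that differ between panels) of the 5 neprilysin genes in 2 bulk libraries of each driver. Points are libraries and lines the mean of the pair. Nep4 was at 40.2 and 30.1 in VT055068 and at 1.97 or less in the others, and Nep2 was highest in split-0367, at 18.8 and 29.5.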

How the data were processed

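Single cells were measured in 10 droplet libraries and bulk RNA in 6 Smart-seq3 libraries, grouped by the submitters' labels. For the single cells the authors deposited counts, UMIs per gene and cell, made with Cell Ranger on dm6 and not normalized. The version of Cell Ranger and the annotation are not given in the sources used here. For the bulk RNA the authors deposited normalized signal values, and STAR is named in the submitters' processing notes. Every bulk value was a whole multiple of a step per library (100% within 0.01), so reads were recovered. The members, gene lists and marker groups were chosen with earlier results of these data known.

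UMIs were summed per marker group and library with 5 or more cells. Clock cells had 4 or more UMIs of Clk, per, tim and cwo summed. The groups were br at 10 or more per 10000 UMIs with Cht6, CrzR with ct, CG15537 at 80, Pvf3 at 20, Pdf at 200, AstA at 50, CCHa1 at 30, CNMa at 5, NPF at 20, 2 or more CapaR UMIs, RunxA, and CG34351 at 5 with mtt. Of the clock cells 659 had no UMI of Clk or tim. The table holds cells above the 15000 UMIs at which the study's methods filter. No doublet caller was run: the study's methods exclude doublets called by Scrublet, and whether this was done before deposit is not given. Cells in more than 1 group were left out, and leaving out the top 5% of UMIs was added after the data were seen, as were leaving out cells with glial markers and a count test on recovered bulk reads.

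Rhythms were fitted with a 24 h cosine and sine and levels with the library as a block, with edgeR 4.0.16 (R 4.3.3), TMM and genes of 20 or more counts. DESeq2 1.42.0 and limma 3.58.1 (bulk, log2 of value + 1) were alternatives or gave background shares. Other settings were a clock sum of 8 or more, marker levels multiplied by 0.5 and 2, no cells over 15000 UMIs, no library block, the collection date as a block, other bulk pseudocounts and each library left out in turn. Tables and figures used Python 3.11.15, numpy 2.4.6, scipy 1.17.1, pandas 2.3.3 and matplotlib 3.10.9. Libraries are replicates of a time point, and the labels give the same collection date to 5 pairs. Deviations from the time course correlated more within those pairs (median r = 0.29, 0.121 to 0.645) than between other pairs (-0.183). The named genes were the members in every group, listed enzymes past the adjusted threshold of 0.05, and the 3 genes most like each member that reached 1 per 10000. Intervals cover counting error only. The edgeR and limma fits were tested on simulated data, and the DESeq2 fits were not.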

Additional observations from a re-analysis of the deposited data

Results flagged for a closer look

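Of 30 sets of library levels, 3 had a library far from the rest by Dixon's criterion, which chance gives in about 1 of 20 sets. Nep1 in RunxA stood at 1.45 per 10000 at ZT06 replicate 1 (9 UMIs, in 2 of 8 cells) and at 0.116 or less in the other 9 libraries. Nep2 in RunxA stood at 0.806 in the same library, from 5 UMIs in 1 cell, with the next library at 0.38. Nep2 in the Pdf group stood at 1.26 at ZT18 replicate 1 (33 UMIs, 14 of 22 cells), with the next of 8 libraries at 0.687.

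The 3164 cells between the gates belong to no clock or comparison group, and entered only the values over all cells, such as the split by glial markers. They held Nep1 at 0.128 per 10000, Nep2 at 0.368, Nep3 at 0.906 and Nep4 at 0.135, all above the limit of 0.00193 that a count of 0 allows. Their Nep2 came from 112 cells, and 21 cells with 5 or more UMIs held 455 of its 571 UMIs.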

How the results depend on the processing

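In the outside clock cells Nep1 stayed lower under every setting run, with leave-one-out log2 ratios of -2.21 to -2.01. Nep3 gave 0.23 with no replicate block, where its call was lost, and 0.21 to 0.27 without single libraries. Nep4 gave 0.85 without cells over 15000 UMIs, 0.91 with DESeq2 and 0.81 without the top 5% of cells by UMIs, each past the threshold, and 0.66 to 1.07 without single libraries. Nep2 in NPF reversed to -0.75 with a clock sum of 8 or more, and the cause was not tested. The number of cycling genes in the outside clock cells (63) was 171 with a clock sum of 8 or more, 37 without cells over 15000 UMIs, 384 with DESeq2, 113 with the collection date as a replicate block, and 24 to 59 without single libraries. No member was called as cycling under any setting, and the date block changed no call of a member. DESeq2 raised the higher share of level calls from 48.6% to 54.8%. In the selecting groups the swing of Nep1 in CrzR/ct was 1.74 with the date block, of Nep2 in CG15537 1.71 with marker levels doubled, of Nep2 in Pdf 1.76 and of Nep3 in Pdf 1.28 without the top 5% of cells, of Nep2 in br/Cht6 1.02 with marker levels multiplied by 0.5, and of Nep3 in CrzR/ct 0.46 without cells over 15000 UMIs and 0.43 without the top 5%. In bulk (counts that rest on 2 libraries a driver), limma called 198 genes for R77H08, 210 for split-0367 and 731 for VT055068. With a pseudocount of 0.1 these were 23, 10 and 380, with the replicate letter as a block 240, 281 and 797, with edgeR on recovered reads 151, 232 and 904, and without single libraries 48 to 435, 19 to 407 and 167 to 1031. The letters do not tie libraries of different drivers to each other. Depth limits Nep4 and Nep5 in all marker groups, Nep1 outside CrzR/ct, Pdf and NPF, and the bulk values of Nep2, Nep4 and Nep5. The gate on cycling genes, the 1 date with under 5 CrzR/ct or Pdf cells in its libraries and the mixed comparison cells limit all levels and swings.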
